A study of Mus musculus with 10 samples.

Results

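Aqp1, Slc14a1 and Galnt15 are 3 of the 55417 named genes in the gene table of 10 mouse mammary carcinoma lines. They were chosen together because their counts were near 0 in some lines and far higher in others, so their levels are given here as a description, with no test. The levels are CPM, that is estimated counts per 1000000 after scaling with TMM factors. The library total behind them is that of the named genes that passed the filter on low counts. All 3 genes were among the 19935 that passed the filter on low counts.

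RNA was sequenced from the parental line 4T1-hHER2, a mammary carcinoma line of BALB/cfC3H mice into which a lentivirus brought human HER2 and luciferase, and from 9 lines derived from it, with 1 library a line. The derived lines all trace to circulating tumour cells (CTCs) from NSG mice (labelled NOD-SCID-GAMMA) that bore 4T1-hHER2-Luc tumours. NSG hosts lack T, B and natural killer cells. Primary 5, 7 and 8 (titled 5-PRI, 7-PRI and 8-PRI) were taken from fat pad xenografts, CTC 1, 3 and 6 (1-CTC, 3-CTC and 6-CTC) from circulating tumour cells, and metastasis 5, 3 and 7 (5-META, 3-META and 7-META) from lung metastases. The labels give no treatment and no age. They do not say whether the lines came from separate animals or what a title's number stands for, so a p-value measures only the spread between these lines. The parental line was never passed through a mouse as far as the labels say, and with 1 library it has no replicate.

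Aqp1 encodes aquaporin-1, a water channel of red cells, kidney tubules and capillary endothelium that carries the Colton blood group. Slc14a1 encodes the urea transporter UT-B of red cells and of the kidney's descending vasa recta, which carries the Kidd blood group. Galnt15 belongs to the family of Golgi enzymes that attach N-acetylgalactosamine to serine or threonine and so begin mucin-type O-glycans. In mouse the genes lie on 3 chromosomes (GRCm38, GENCODE M21 annotation): Aqp1 at chr6:55336432-55348555 on the plus strand, Slc14a1 at chr18:78100091-78142119 on the minus strand and Galnt15 at chr14:32028989-32062197 on the plus strand.

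Libraries held 79869760 to 97722716 estimated counts, of which 19.69% to 22.77% were in assembled transcripts tied to no gene. That share was highest in CTC 6, metastasis 7 and the parental line, at 22.77%, 22.49% and 22.39%, and it was 19.69% to 20.88% in the other 7. CTC 6, metastasis 7 and the parental line were all low in the 3 genes, and the part of this share in their levels was not tested. Any 2 derived libraries of 1 group differed far beyond counting noise, with a chi-square per gene of 189 to 799.8, so none of these pairs was a repeat deposit.

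Aqp1 was high in 5 lines and low in 5. The parental line had 0.0992 CPM from 7 counts. Primary 5 had 209 CPM, primary 7 had 3.8 and primary 8 had 3.7. CTC 1 had 131 CPM, CTC 3 had 313 and CTC 6 had 6.24, and metastasis 5 had 408, metastasis 3 had 311 and metastasis 7 had 22.9. Each of the 3 derived groups therefore held high lines and at least 1 low line, and the groups overlapped. The lowest derived line had 269 counts, and its 95% Poisson interval of 3.27 to 4.17 CPM lay above the parental interval of 0.0399 to 0.204. Poisson intervals cover counting error only. In bulk RNA, fewer cells that express a gene and less RNA per cell cannot be told apart.

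In order, metastasis 5 stood highest for Aqp1, followed by CTC 3 and metastasis 3, whose counting intervals overlapped (309 to 317 and 307 to 315 CPM). Primary 5, CTC 1, metastasis 7 and CTC 6 came next, each apart from its neighbours beyond counting error, and then primary 7 and primary 8, whose intervals overlapped again. The widest step in the order, 2.81 log2 units, lay between primary 8 and the parental line. The step from CTC 1 down to metastasis 7 was 2.50. Aqp1 was thus not a gene with only an on and an off level, since 4 derived lines stood between the parental line and the 5 high lines.

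Slc14a1 showed the same split with lower low lines. No count was found in the parental line or in primary 8, where the 95% Poisson intervals end at 0.0523 and 0.0507 CPM. Primary 5 had 23.8 CPM and primary 7 had 0.276, from 21 counts. CTC 1 had 157 CPM, the highest of all 10 lines, CTC 3 had 89.5 and CTC 6 had 0.412, from 27 counts. Metastasis 5 had 41.2, metastasis 3 had 96.3 and metastasis 7 had 4.39. The lines high in Slc14a1 were the 5 that were high in Aqp1, but their order differed: CTC 1 stood highest for Slc14a1 and lowest of the 5 high lines for Aqp1. CTC 6 and primary 7 could not be told apart within counting error (0.271 to 0.599 and 0.171 to 0.422 CPM), nor could the parental line and primary 8. The widest step, 2.42 log2 units, lay between metastasis 7 and CTC 6, and another of 2.31 lay between primary 5 and metastasis 7.

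Galnt15 was also without a count in the parental line and in primary 8, and primary 7 had 2 counts (0.0263 CPM, 95% Poisson interval 0.00319 to 0.095). Primary 5 had 46 CPM. CTC 1 had 53.3, CTC 3 had 73.8 and CTC 6 had 3.84, and metastasis 5 had 246, metastasis 3 had 104 and metastasis 7 had 7.27. The same 5 lines were high again, with metastasis 5 highest as for Aqp1. Primary 7, primary 8 and the parental line could not be told apart within counting error, and every other step in the order exceeded it. The widest step, 3.04 log2 units, lay between CTC 6 and primary 7, so CTC 6 and metastasis 7 formed an intermediate level.

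**Figure D1:**
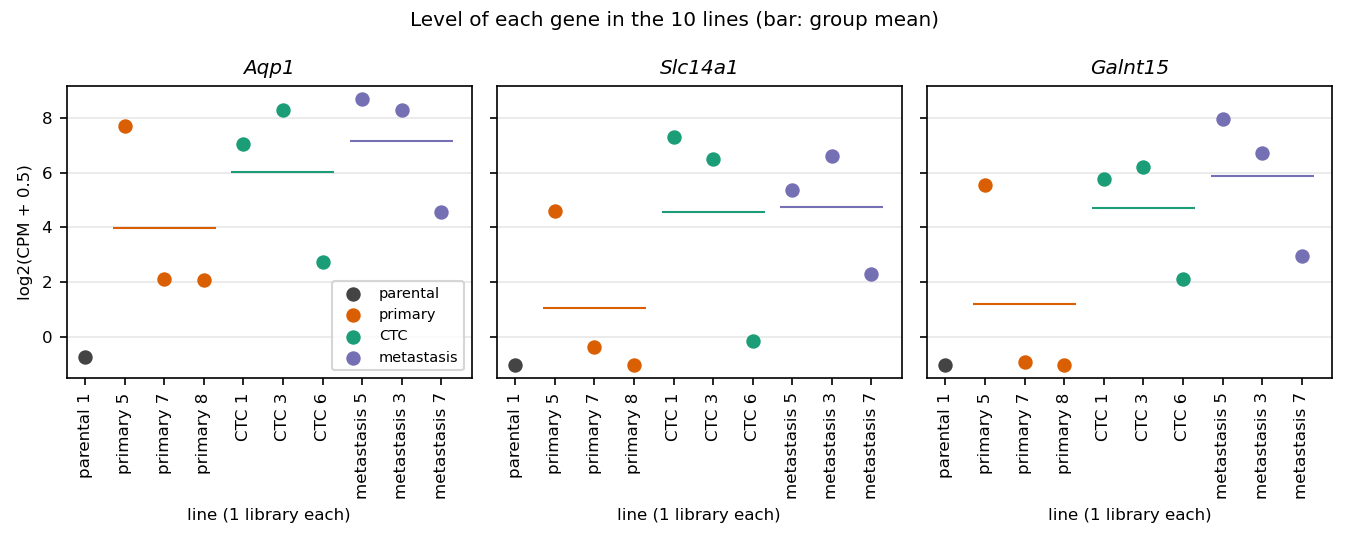
Level of Aqp1, Slc14a1 and Galnt15 as log2(CPM + 0.5) in each of the 10 lines (1 point a library), coloured by group, with a bar at the mean of each derived group of 3 lines. Primary 5, CTC 1, CTC 3, metastasis 5 and metastasis 3 are high for all 3 genes, and each derived group has at least 1 low line.

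Levels of different genes were compared per kilobase of exon (2.63 kb for Aqp1, 4 kb for Slc14a1 and 6.33 kb for Galnt15). In metastasis 5 Aqp1 reached 155 CPM per kb, Galnt15 38.9 and Slc14a1 10.3. Aqp1 was above Slc14a1 per kilobase in all 8 lines where both exceeded 3 counts, from 1.27-fold in CTC 1 to 23-fold in CTC 6. It was above Galnt15 in all 7 lines where both did, from 3.91-fold in CTC 6 to 11-fold in primary 5. The order of Slc14a1 and Galnt15 changed between lines. Slc14a1 was 4.67-fold above Galnt15 per kilobase in CTC 1, 1.92-fold in CTC 3 and 1.47-fold in metastasis 3, whereas the ratio of Slc14a1 to Galnt15 was 0.819 in primary 5, 0.265 in metastasis 5 and 0.17 in CTC 6. The ratio in metastasis 7 was 0.957. The 3 genes thus shared which lines were high but not their proportions within a line.

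The groups overlapped in every comparison of the 3 derived groups for all 3 genes, that is 0 of 3 genes stood apart. Of all tested genes, 13.6% had metastasis and primary lines that did not overlap, 7.15% CTC and primary lines and 8.28% metastasis and CTC lines, and the choice of the 3 genes used these values. Aqp1 averaged 72.2 ± 119 CPM in primary lines (SD, n = 3), 150.3 ± 154 in CTC lines and 247 ± 200.2 in metastasis lines. The corresponding means of Slc14a1 were 8.02 ± 13.6, 82.4 ± 78.7 and 47.3 ± 46.3, so CTC lines, not metastasis lines, had its highest mean. Galnt15 averaged 15.3 ± 26.5, 43.7 ± 36 and 119 ± 120.3 CPM. In the primary lines the SD exceeded the mean for all 3 genes.

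On the log2(CPM + 0.5) scale, which understates the change of low genes, the metastasis mean minus the primary mean was 3.21 for Aqp1, 3.68 for Slc14a1 and 4.67 for Galnt15. The SDs of the primary lines on that scale were 3.25, 3.07 and 3.75, and those of the metastasis lines were 2.28, 2.22 and 2.60. CTC minus primary gave 2.07, 3.48 and 3.49. Metastasis minus CTC gave 1.14, 0.20 and 1.17, and these 3 differences changed sign without CTC 6, to -0.50 for Aqp1, -2.14 for Slc14a1 and -0.11 for Galnt15. Slc14a1 also changed sign without metastasis 3 (-0.72), without metastasis 5 (-0.11) and with a pseudocount of 2 (-0.12). The difference between a group's highest and lowest line was often larger than any difference between group means: 56.5-fold for Aqp1 in primary lines and 50.2-fold in CTC lines, 382-fold for Slc14a1 in CTC lines and at least 1115-fold for Galnt15 in primary lines (against a floor of 3 counts in the line without a count). The metastasis lines spanned 17.8-fold, 21.9-fold and 33.9-fold for Aqp1, Slc14a1 and Galnt15.

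The mean of the 9 derived lines minus the parental line was 6.46 for Aqp1, 4.46 for Slc14a1 and 4.92 for Galnt15 on the same scale. Aqp1 was higher in all 9 derived lines than in the parental line. Of all tested genes, 14.1% had the parental library below every derived library, and the choice of Aqp1 used these values. Slc14a1 and Galnt15 overlapped, because primary 8 had no count either.

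None of the 3 genes passed edgeR's quasi-likelihood test at a Benjamini-Hochberg adjusted p of 0.05 over all tested genes in any of the 4 comparisons. The test called 0% of tested genes for metastasis against primary, 0% for CTC against primary, 0.00502% (1 gene) for metastasis against CTC and 0.0201% (4 genes) for derived against parental. At an unadjusted p under 0.05 it took 1652, 809, 656 and 2058 genes (8.29%, 4.06%, 3.29% and 10.3%). DESeq2 called 175, 66, 27 and 671 genes (0.878%, 0.331%, 0.135% and 3.37%) in the same comparisons. It called all 3 genes in derived against parental and none of them in the other comparisons. These counts are given as a background to genes chosen on these same values, and nothing is read from them.

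Lines that share a title number can be set side by side. With number 5, metastasis was 1.95-fold above primary for Aqp1, 1.73-fold for Slc14a1 and 5.36-fold for Galnt15. With number 7, metastasis 7 was 6.02-fold above primary 7 for Aqp1 and 15.9-fold for Slc14a1, and Galnt15 was at 7.27 CPM against 2 counts. With number 3, the metastasis to CTC ratio was 0.993 for Aqp1, 1.08 for Slc14a1 and 1.4 for Galnt15. With numbers 5 and 3 both lines were in the high set, and with number 7 both were outside it, though far apart in level. The genes were chosen on these values, so a pairing of lines cannot be read from them.

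Few genes spanned as many log2 units over the 10 lines. The highest minus the lowest log2(CPM + 0.5) was 9.41 for Aqp1, 8.95 for Galnt15 and 8.30 for Slc14a1, which placed them 4th, 7th and 12th of 19935 genes. The median gene spanned 1.24 units and the 99th percentile was 5.38. Their widest steps were less unusual and ranked 120th for Aqp1, 93rd for Galnt15 and 190th for Slc14a1. The span of Aqp1 rested on the parental line: it was 6.60, in 51st place, over the 9 derived lines. Between Aqp1 and Galnt15 in span stood Lgr6, a receptor for R-spondins (9.22), and F13a1, which encodes the A subunit of clotting factor XIII (9.19).

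Over the 10 lines the log2 levels of the 3 genes moved together. Pearson's r was 0.961 for Aqp1 with Galnt15 (Spearman's rho 0.973), 0.936 for Aqp1 with Slc14a1 (0.827) and 0.934 for Slc14a1 with Galnt15 (0.890). The lines all descend from 1 parental line and fall into a high and a low set, so r mostly restates that split, and neither set has the 6 lines needed to ask about a relation within it. The genes were also chosen together for this pattern.

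The transcript table showed which transcript entries held the counts. All Aqp1 counts were in its only annotated transcript. For Galnt15, transcript 201 held 92.7% to 100% of counts in the 7 lines with at least 20, and transcript 202 held the rest. The share of Galnt15-202 was 7.28% in primary 5 (95% Wilson interval 6.44 to 8.22), 6.83% in metastasis 3 and 2.8% in metastasis 5, against 1.45% in CTC 3. It was 0 of 4001 counts in CTC 1, whose interval ends at 0.0959%. For Slc14a1, transcript 201 held 80.9% to 100% in 8 lines, and transcript 202 held 19.1% in primary 5, 18.5% in metastasis 3 and 15.3% in CTC 1. In metastasis 7, a low line, Slc14a1-202 held 2.48% (upper limit 4.83%). At 21 and 27 counts, primary 7 and CTC 6 allowed shares of up to 15.5% and 12.5%. StringTie divides reads among transcripts that share exons, so these shares are estimates and the intervals cover counting error only.

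The promoters of Aqp1 and Galnt15 are shown because, of the genes chosen, the promoter set held windows for these 2. They let the reader compare what letters the windows hold. Both are RefSeq windows of GRCm38.p6 from 250 bases before to 50 bases after the RefSeq start, chr6:55336049-55336348 and chr14:32028853-32029152, read 5′ to 3′ on the plus strand. The GENCODE start of Aqp1 lies 133 bases beyond the RefSeq start and outside the window, and that of Galnt15 lies at position -114. Slc14a1 had no window in that set. Capitals mark matches to 6 short motifs searched on both strands.
Aqp1: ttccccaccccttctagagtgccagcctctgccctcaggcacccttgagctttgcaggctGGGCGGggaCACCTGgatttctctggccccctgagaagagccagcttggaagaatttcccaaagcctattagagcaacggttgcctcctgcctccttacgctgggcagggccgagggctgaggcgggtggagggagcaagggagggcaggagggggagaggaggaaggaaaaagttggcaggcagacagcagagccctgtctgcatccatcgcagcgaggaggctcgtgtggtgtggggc
Galnt15: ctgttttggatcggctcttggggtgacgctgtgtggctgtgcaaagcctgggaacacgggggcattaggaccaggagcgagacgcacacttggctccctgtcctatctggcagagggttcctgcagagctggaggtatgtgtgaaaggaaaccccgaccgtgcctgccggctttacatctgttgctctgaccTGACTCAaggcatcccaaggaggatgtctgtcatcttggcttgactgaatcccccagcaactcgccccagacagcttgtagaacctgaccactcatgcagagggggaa

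In the Aqp1 window, GGGCGG (the GC box) began at position -190 and CACCTG (an E-box) at position -181 from the RefSeq start, with no overlap. In the Galnt15 window, TGACTCA began at position -58, which is the AP-1 motif TGAGTCA read on the other strand. The TEAD motif GGAATG, the HIF motif ACGTG and the TATA motif TATAAA were in neither window. Of 32851 promoter windows of this length, 35.7% held the GC box, 20.2% the E-box, 5.2% the AP-1 motif, 14.7% the TEAD motif, 19.6% the HIF motif and 13.6% the TATA motif, each on either strand. The Aqp1 window held 8 CG pairs and was 62.7% G or C, and the Galnt15 window held 9 and was 57.3%, against a median of 7 CG pairs. No motif was common to both windows. A match is a description of letters and not a binding site.

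Among the neighbours of Aqp1, the next protein-coding gene before it followed the same lines. Mindy4, a deubiquitinase family gene that ends 16.2 kb before Aqp1, ranged from 0.779 CPM in the parental line to 23.3 in metastasis 3 and had an r of 0.976 with Aqp1. Its 5 highest lines, at 12 to 23.3 CPM, were the 5 lines high in Aqp1, and its 5 others were at 0.779 to 3.91. Inmt, which encodes indolethylamine N-methyltransferase and lies 161 kb away, had an r of 0.930. It had no count in the parental line and primary 8, and 27.7 and 27.9 CPM in CTC 3 and metastasis 3. On the other side, Ghrhr, the growth hormone releasing hormone receptor, and Adcyap1r1, the PACAP receptor, had no count in any line.

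Near Slc14a1, the related urea transporter gene Slc14a2, also on the minus strand, ends 4.03 kb away and had at most 3 counts in a line. Siglec15, a sialic acid-binding receptor gene 42.7 kb away, had an r of 0.961 with Slc14a1. It had no count in the parental line, primary 7 and primary 8, and 1.71 to 6.98 CPM in the 5 high lines. Epg5, an autophagy gene, went the other way (r -0.705, 49.4 to 216 CPM), and so did Gm6133 at 0.0133 to 1.28 CPM. Around Galnt15 no tested neighbour was near 0 in any line. Dph3 and Oxnad1, which overlap each other on opposite strands, ranged from 29.7 to 61.7 and from 18.6 to 66.1 CPM and had an r with Galnt15 of -0.559 and -0.891. Btd, the biotinidase gene, had an r of 0.877, with 21.3 to 45.2 CPM in the 5 high lines and 5.24 to 12.2 in the others. Ankrd28 had an r of 0.785. None of the 9 neighbours tested was called by edgeR in any comparison, and 0 of them had an unadjusted p under 0.05. DESeq2 called 1 in derived against parental, where it called 3.37% of all tested genes. The neighbours' median log2 fold change was 0.22 for metastasis against primary and 0.40 for derived against parental, against 0.01 and 0.10 over all tested genes.

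**Figure D2:**
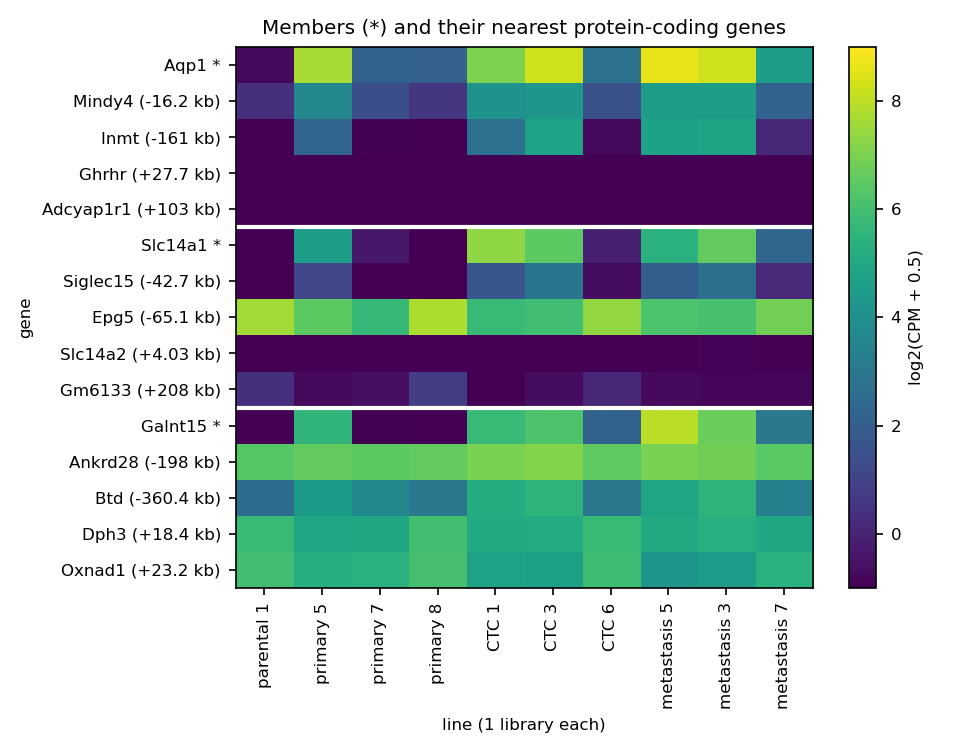
Colour shows log2(CPM + 0.5) in the 10 lines (columns) for Aqp1, Slc14a1 and Galnt15 (each with an asterisk) and for the 2 nearest protein-coding genes on each side, with the distance in kb (minus, at lower coordinates). Mindy4 and Inmt beside Aqp1, Siglec15 beside Slc14a1 and Btd beside Galnt15 are highest in the same 5 lines as the 3 genes. The genes beside Galnt15 have counts in all 10 lines.

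The water channel family followed Aqp1 only in part. Of 12 aquaporin genes, 6 passed the filter and 2, Aqp4 and Aqp12, had no count in any line. Aqp5, a water channel of secretory glands and airway epithelium, was the only other one above 3 CPM, at 2.97 CPM in the parental line and 43.7 in primary 5. Its 4 highest lines, primary 5, CTC 3, metastasis 5 and metastasis 3 (35.5 to 43.7 CPM), were also among the high lines of Aqp1 (r 0.917), but CTC 6 had 22.1, like CTC 1 with 22.2. Aqp11 (0.127 to 2.94 CPM, r 0.894) and Aqp3 (0.0825 to 1.77, r 0.741), an aquaglyceroporin, were low throughout. None of the 5 tested aquaporins other than Aqp1 was called by edgeR in any comparison, and DESeq2 called 1 in derived against parental. At an unadjusted p under 0.05 there were 1, 1, 0 and 3 (metastasis against primary, CTC against primary, CTC to metastasis and derived against parental; this order is kept for the lists that follow). Their median log2 fold change was 0.80 for metastasis against primary and 3.07 for derived against parental, beside 0.01 and 0.10 over all genes.

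Genes of urea handling did not share a direction. Of 11 such genes 7 were tested. Arg2, the mitochondrial arginase that makes urea, was alike with Slc14a1 (r 0.942), at 9.79 to 15.7 CPM in the 5 high lines and 1.18 to 3.8 in the others. Ass1, argininosuccinate synthase, went the other way (r -0.691), with 84.9 CPM in primary 7 and 5.83 in metastasis 3. Asl, argininosuccinate lyase, had an r of 0.824 and Slc25a15, the mitochondrial ornithine carrier, of -0.835. None of the 6 other than Slc14a1 was called by edgeR or DESeq2 in any comparison (1, 1, 0 and 0 at an unadjusted p under 0.05), and their median log2 fold change was -0.66 for metastasis against primary and 1.46 for derived against parental. Among 14 tested genes of the osmotic stress response, Slc5a3, the sodium and myo-inositol cotransporter, was alike with Slc14a1 (r 0.987). It had 158 to 274 CPM in the 5 high lines and 22.7 to 58 in the others, and its span overlaps Mrps6 on the same strand, so their reads may be mixed. Akr1b3, aldose reductase, and Oxsr1, a kinase that acts on ion cotransporters, went the other way (r -0.918 and -0.910 with Slc14a1), and Nfat5, the transcription factor of that response, had an r of 0.384. None of the 14 was called by edgeR or DESeq2 (2, 0, 2 and 0 at an unadjusted p under 0.05). Their median log2 fold change was 0.29 for metastasis against primary and 0.28 for derived against parental.

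Of the N-acetylgalactosaminyltransferases, 19 were in the table and 11 were tested. Galnt5, Galnt6, Galnt13, Galnt14, Galntl5 and Galntl6 had no count in any line. Galnt2, a broadly expressed member, had the pattern most like Galnt15 (r 0.959), with 309.5 to 542 CPM in the 5 high lines and 136 to 232 in the others. Galnt1 (75.6 to 184 CPM, r 0.793) and Galnt4 (4.75 to 44.1, r 0.798) also followed it. Galnt3 went the other way (r -0.852), from 31 CPM in metastasis 5 to 107 in primary 7. Galnt15, chosen for levels that differ widely, spanned 8.95 log2 units against 3.09 for Galnt4 and 1.99 for Galnt2. None of the 10 others was called by edgeR (2, 0, 0 and 1 at an unadjusted p under 0.05), and DESeq2 called 1 in derived against parental. Their median log2 fold change was 0.28 for metastasis against primary and 0.59 for derived against parental.

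Enzymes that extend O-glycans were mixed. St6galnac6, a sialyltransferase, was most like Galnt15 (r 0.951, 3.74 to 33.5 CPM). C1galt1, which makes the core 1 structure from the sugar that these transferases add, had an r of -0.833 and 55.3 to 117 CPM. St3gal1 spanned 4.95 CPM in metastasis 7 to 67.4 in metastasis 3 (r 0.730), and St6galnac2 had an r of 0.585. None of the 12 tested was called by edgeR or DESeq2 (0, 2, 0 and 1 at an unadjusted p under 0.05), and their median was 0.07 for metastasis against primary and 0.16 for derived against parental.

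**Figure D3:**
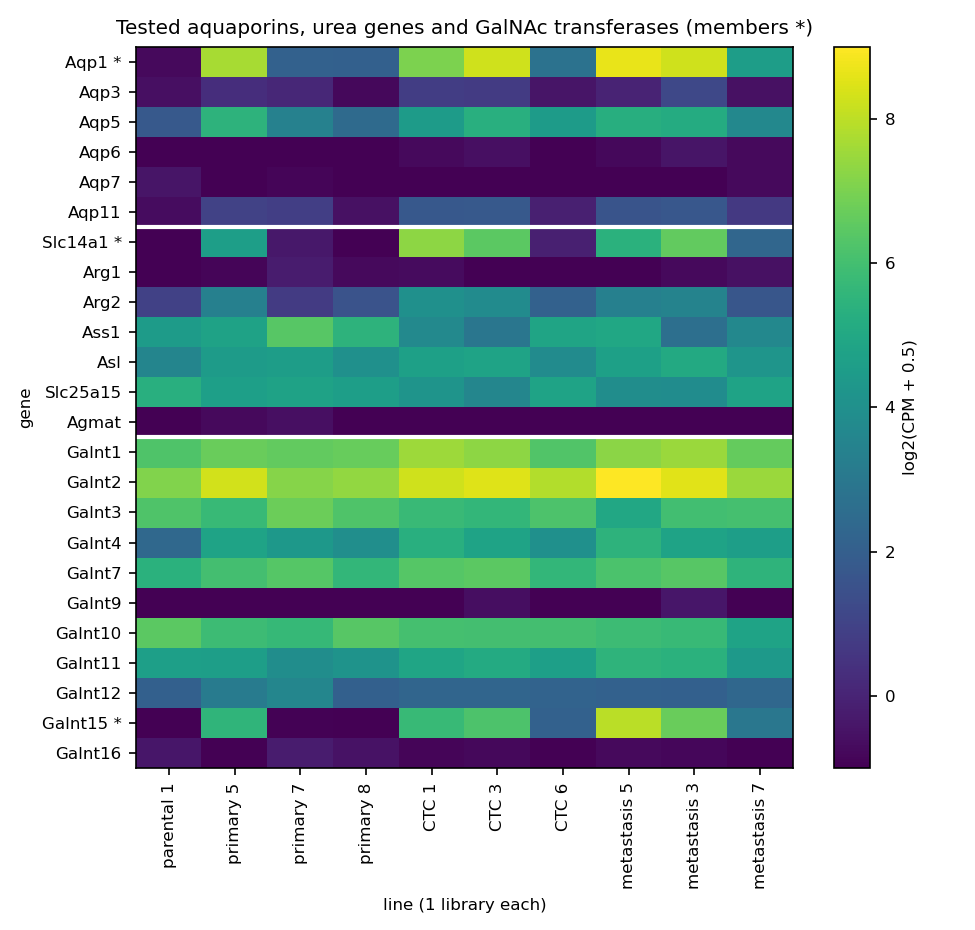
Colour shows log2(CPM + 0.5) in the 10 lines (columns) for the tested aquaporins, urea handling genes and N-acetylgalactosaminyltransferases, in 3 blocks, with an asterisk at Aqp1, Slc14a1 and Galnt15. These 3, chosen for levels that differ widely, span more log2 units (9.41, 8.30 and 8.95) than any other gene shown. Galnt2 is high in every line.

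Genes that carry other blood groups were mixed. Of 30 in the table, 20 were tested, and 18 besides these 2 had a median r of 0.31 with Aqp1 and 0.31 with Slc14a1. An r of at least 0.9 with Aqp1 was found for 2 of the 18 (11.1%), against 3.4% of all tested genes. Slc29a1, a nucleoside transporter, had an r of 0.960 (41.4 to 148 CPM). Smim1, which carries the Vel group, had an r of 0.912 with Aqp1 (0.836 to 18.2 CPM). Sema7a had 194 CPM in CTC 3 and 4.13 in CTC 6 (r 0.827), Emp3 had an r of 0.850, and Abcg2, a drug efflux pump, went the other way (r -0.872, 0.104 to 16.2 CPM). None of the 18 was called by edgeR (3, 0, 0 and 4 at an unadjusted p under 0.05). DESeq2 called 1 in metastasis against primary and 3 in derived against parental, beside 0.878% and 3.37% of all tested genes. Their median log2 fold change was 0.28 and 1.00 in these comparisons. Of 10 tested carbonic anhydrases, enzymes that act beside aquaporin-1 in red cells and kidney, none had an r of 0.9 or more with Aqp1. Car9 ranged from 2.25 to 80.2 CPM (r 0.775) and Car6 from 0.511 to 152 (r -0.333). EdgeR called none (2, 1, 0 and 4 at an unadjusted p under 0.05) and DESeq2 called 1 in derived against parental, with a median of 0.08 for metastasis against primary and 0.21 for derived against parental.

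The genes most like each member were taken from 10573 tested genes with a mean log2(CPM + 0.5) of at least 1, with the 3 genes themselves, predicted genes, clones and pseudogenes left out. For Aqp1 they were Itga1 (r 0.988), Man2b2 (0.988), Fmnl3 (0.986), Naglu (0.985), Dusp27 (0.985) and Irf8 (0.984). Itga1, the collagen-binding integrin alpha 1, ran from 0.737 CPM in the parental line to 75.6 in metastasis 5, and its span holds Pelo on the same strand. Man2b2, a lysosomal mannosidase, ran from 15.4 to 121 CPM, and Naglu, which removes N-acetylglucosamine from heparan sulfate in lysosomes, from 6.96 to 92.2. Dusp27 had 0.0283 CPM in the parental line and 90.8 in metastasis 3. Most opposite to Aqp1 were Polr2g (-0.986), a subunit of RNA polymerase II, Casz1 (-0.982), Zmynd19 (-0.979) and Uck2 (-0.978), a uridine-cytidine kinase with 139.8 CPM in metastasis 5 and 414 in the parental line.

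For Slc14a1 the most alike were Appl2 (r 0.988), Slc5a3 (0.987), Gstm1 (0.986), Prkch (0.985), Llgl1 (0.985) and Egr3 (0.983). Gstm1, a glutathione transferase, had 0.609 to 6.67 CPM in the 5 low lines and 32.9 to 56.9 in the 5 high ones. Prkch, protein kinase C eta, had 78.2 and 80.9 CPM in CTC 1 and CTC 3. Most opposite were Bysl (-0.989), a factor of small ribosomal subunit assembly, Adamts1 (-0.984), Dhx29 (-0.983) and Coq10b (-0.981). Adamts1, a secreted protease, had 326 CPM in primary 8 and 5.55 in CTC 1.

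For Galnt15 the most alike included Antxr1 (r 0.991), Lynx1 (0.991), Ace (0.987), Rilpl1 (0.986) and Plxnd1 (0.986). Ace, angiotensin-converting enzyme, ordered the 10 lines exactly as Galnt15 did (rho 1.000), with no count in the parental line and primary 8 and 91.6 CPM in metastasis 5. Antxr1, an anthrax toxin receptor, ran from 11.4 CPM in primary 8 to 233 in metastasis 5. Most opposite were Armc1 (-0.984), Gfm1 (-0.980), Zbed4 (-0.978) and Actl6a (-0.977).

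The lines' split into high and low sets runs through many genes. An r of 0.9 or more was found for 5.3% of the 10573 genes with Aqp1, 4.8% with Slc14a1 and 4.62% with Galnt15, and one of -0.9 or less for 3.4%, 3.79% and 2.86%. In all, 251 genes had an r of at least 0.9 with each of the 3, out of 834 with at least 1 of them. The lists above therefore name the ends of a long series and not a small set.

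**Figure D4:**
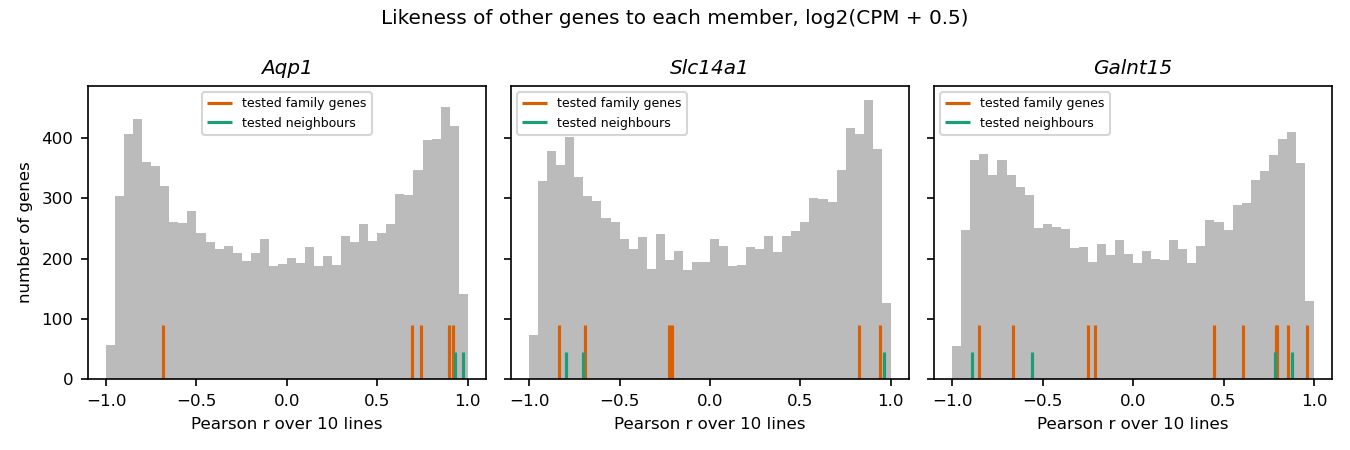
Number of the 10573 genes (vertical axis) at each Pearson r over 10 lines (horizontal axis) with Aqp1, Slc14a1 and Galnt15, with orange ticks at the tested genes of the same family and green ticks at the tested neighbours. At an r of at least 0.9 lie 5.3%, 4.8% and 4.62% of genes, and at -0.9 or less 3.4%, 3.79% and 2.86%.

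Aqp1 and Slc14a1 are textbook genes of red cells and of small vessels, so markers of host cells were read in the same lines. Of 13 red cell markers in the table, 7 had no count in any line, among them the globin genes Hba-a1, Hba-a2, Hbb-bs and Hbb-bt and the membrane genes Epb42 and Rhag. The summed red cell markers were 1.73 to 6.33 CPM, highest in the parental line and lowest in metastasis 5, where Aqp1 was highest. Most of that sum in the parental line was Sptb (5.64 CPM), and the highest level of Alas2 was 0.236 CPM. Of 12 endothelial markers, Emcn had no count, and Pecam1, Kdr, Tek and Cldn5 were at or below 0.623, 0.0526, 0.085 and 0.0526 CPM. The endothelial sum was 5.95 to 8.89 CPM in primary lines, 9.93 to 12.6 in CTC lines and 7.78 to 14.3 in metastasis lines, against 7.76 in the parental line. Its largest part was Egfl7, with up to 10.5 CPM. The endothelial sum was 8.89 to 14.3 CPM in the 5 lines high in Aqp1 and 5.95 to 9.93 in the others, and its part in the result was not tested. The 10 leukocyte markers summed to 0.15 to 0.947 CPM, and Cd3e, Adgre1, Ly6g, S100a9 and Tyrobp had no count.

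The summed fibroblast markers moved with the 3 genes, but most single markers did not. The 8 tested had a median r of 0.34 with Aqp1, 0.27 with Slc14a1 and 0.36 with Galnt15, and only Pdgfra had an r of at least 0.9. Their sum was 5.5 CPM in the parental line, 5.07 to 77.3 in primary, 11.2 to 142 in CTC and 16.2 to 303 in metastasis lines. Most of it in every line was Pdgfra, a receptor of platelet-derived growth factor (4.05 to 269 CPM), which had an r of 0.95 with Aqp1, 0.933 with Slc14a1 and 0.977 with Galnt15. Without Pdgfra the sum was 1.02 to 33.7 CPM, and without Pdgfrb as well it was 0.961 to 15, highest in metastasis 5, where Dcn had 12.4 CPM. The collagen genes that fibroblasts make most of, Col1a1, Col1a2 and Col3a1, did not exceed 2.32, 1.2 and 0.325 CPM, and Lum did not exceed 0.0524. The part of fibroblasts in the result was not tested. Of the tested markers of red cells (3), endothelium (7), fibroblasts (8) and leukocytes (3), edgeR called none in any comparison. At an unadjusted p under 0.05 there were 0, 0, 0 and 1 of the red cell markers, 0, 0, 0 and 1 of the endothelial, 0, 2, 3 and 1 of the fibroblast and 0, 1, 0 and 0 of the leukocyte markers. DESeq2 called 1 endothelial and 2 fibroblast markers in derived against parental, where it called 3.37% of all tested genes.

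Epithelial markers went the other way. The 16 genes had a median r of -0.83 with Aqp1, -0.83 with Slc14a1 and -0.86 with Galnt15, beside 0.00, -0.01 and -0.01 over all tested genes. Cdh1, which encodes E-cadherin, had 77.3 to 107 CPM in the 5 high lines and 150.2 to 627 in the others (r -0.912 with Galnt15), and Krt19 had 0.774 to 18.2 and 30.3 to 262 (r -0.940 with Slc14a1). Krt8 and Krt18, keratins of simple epithelium, did not follow (r 0.487 and 0.621 with Aqp1) and were at 54.7 to 1232 and 303 to 1462 CPM in the 10 lines. The 11 tested mesenchymal genes had a median r of 0.50, 0.52 and 0.53, and Vim, the vimentin gene, ranged from 301 to 4749.6 CPM (r 0.794 with Aqp1). Fn1, at 1169.8 to 6753 CPM, did not follow (r -0.005 with Aqp1). With Aqp1, Axl had an r of 0.496 and Zeb2 of 0.279, while Snai1 and Snai2 had -0.244 and -0.540. EdgeR called none of the 16 (4, 8, 0 and 3 at an unadjusted p under 0.05) and none of the 11 (1, 1, 1 and 2). Over all tested genes the unadjusted shares were 8.29%, 4.06%, 3.29% and 10.3%. DESeq2 called 2, 3, 0 and 0 of the 16 and 0, 0, 0 and 1 of the 11, beside 0.878%, 0.331%, 0.135% and 3.37% of all tested genes. The median log2 fold change of the epithelial genes was -1.57 for metastasis against primary and -1.08 for derived against parental, and that of the mesenchymal genes was 0.26 and 0.48.

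**Figure D5:**
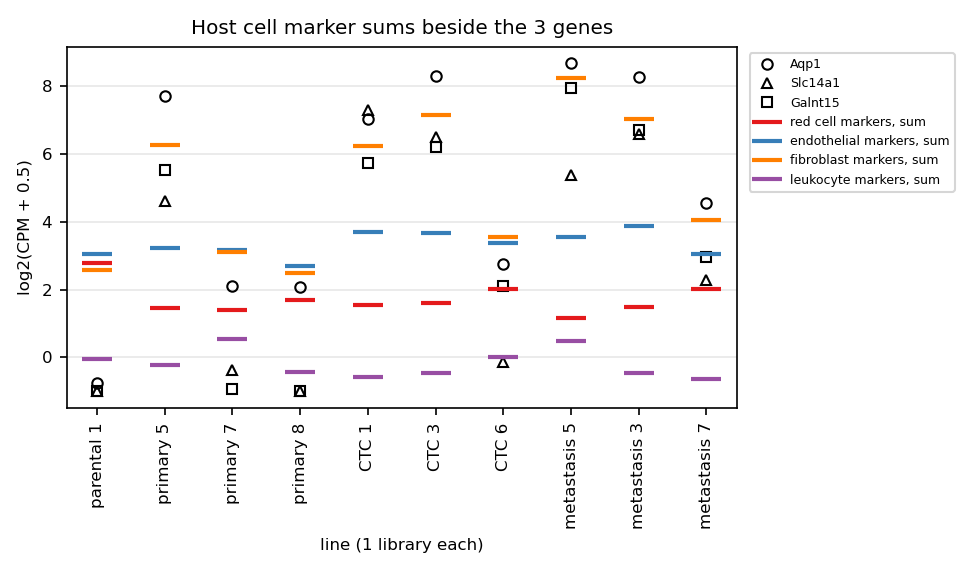
Summed level of red cell, endothelial, fibroblast and leukocyte markers (coloured bars) and the levels of Aqp1, Slc14a1 and Galnt15 (open symbols) in the 10 lines, all as log2(CPM + 0.5). The fibroblast sum, mostly Pdgfra, runs from 5.07 to 303 CPM with the 3 genes, and the red cell sum is highest in the parental line, at 6.33 CPM.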

How the data were processed

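Polyadenylated RNA of 10 lines was sequenced in pairs of reads on an Illumina HiSeq, per the labels' protocols. The authors deposited unscaled estimated counts in a gene table and a transcript table, and the submitters' processing notes name HISAT2 2.1.0, StringTie 2.0.3, DESeq2 1.26.0 and GRCm38. The annotation release and the use of strand are not given in the sources used here, so overlapping genes are uncertain. The 17127 assembled entries tied to no gene (19.69% to 22.77% of counts) stayed out, and reads counted there can lower a named gene. In the transcript table, 1 entry filled only in part was left out.

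Counts were scaled with TMM factors, filtered with filterByExpr at its defaults and tested with edgeR 4.0.16 (R 4.3.3) in 1 fit of 4 groups over 10 libraries, with Benjamini-Hochberg adjustment over 19935 genes. The single parental library was assumed to vary like the others. Likeness is Pearson's r of log2(CPM + 0.5), with no p. Scripts were tested on simulated data.

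Genes were named by rule: the 3 genes, the 2 nearest protein-coding genes on each side, the 6 most alike and 4 most opposite genes to each, and, in each list, called genes, the 4 highest or those that span over 3 log2 units. A few genes that the rule or the lists took are not reported here. The genes and the 13 lists were chosen with earlier results of these data known, and any gene named outside that rule was picked with its values in view.

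Titles share the numbers 5 and 7 (primary, metastasis) and 3 (CTC, metastasis). Deviations from group means correlated at 0.319, 0.12 and 0.406 in these pairs, against a median of -0.0491 in other pairs. The highest values, however, were in pairs of unlike number, 0.506 for CTC 6 with metastasis 7 and 0.430 for primary 8 with CTC 6. The values therefore do not settle a pairing, and the numbers were treated as pairing lines only in an alternative fit. That treatment comes from the values and not from the labels. Alternatives were DESeq2 1.42.0, other scalings, filters and pseudocounts, a replicate block, all entries, and leaving out each line.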

Additional observations from a re-analysis of the deposited data

How the results depend on the processing

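Under other scalings and when summed from the transcript table, the levels of the 3 genes stayed within wide limits (36 of 36 values). The limits were the SD between lines for derived groups and the counting interval for the single parental library. The log2 differences between groups also moved by less than the SD (132 of 132, with the sign changes given above for metastasis against CTC). These SDs were 2.22 to 4.08 log2 units in the derived groups, so the counts could hardly fail and say little about stability. Even a fall from 2.07 to 0.94, for Aqp1 in CTC against primary without CTC 3, counted as unmoved. The r between members has no such SD, and its 39 alternative values were 0.827 to 0.977. Without 1 line in turn, the log2 difference of Aqp1, Slc14a1 and Galnt15 was 2.26 to 5.08, 2.64 to 5.44 and 3.56 to 6.83 for metastasis against primary. It was 0.94 to 3.94, 2.1 to 5.82 and 2.39 to 5.66 for CTC against primary, and -0.50 to 2.45, -2.14 to 1.58 and -0.11 to 2.63 for metastasis against CTC. For derived against parental it was 6.09 to 6.92, 3.98 to 5.02 and 4.42 to 5.54. With the pairing by number as a replicate block, the same-number differences of metastasis against primary were 1.70, 1.72 and 3.15 over 2 pairs. CTC and primary lines share no number, and CTC and metastasis lines share 1.

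With pseudocounts of 0.1 and 2, the difference of Aqp1, Slc14a1 and Galnt15 was 3.29 and 2.95, 4.76 and 2.62, and 6.10 and 3.43 for metastasis against primary. It was 2.13 and 1.88, 4.32 and 2.74, and 4.90 and 2.33 for CTC against primary, 1.16 and 1.07, 0.44 and -0.12, and 1.20 and 1.10 for metastasis against CTC, and 8.00 and 4.79, 6.30 and 3.08, and 6.73 and 3.45 for derived against parental. The spans and widest steps depend on the pseudocount by construction. With 0.1 they were 11 and 4.25 for Aqp1, 10.62 and 3.13 for Slc14a1 and 11.27 and 4.96 for Galnt15. With 2 they were 7.61 and 2.42, 6.32 and 2.01, and 6.96 and 2.37. Over the 9 derived lines Aqp1 spanned 6.60 with a widest step of 2.50. Of 390 values of r for the named alike and opposite genes, 382 moved little and 0 changed sign.

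Counts of genes called by edgeR, 0, 0, 1 and 4 in the 4 comparisons (metastasis against primary, CTC against primary, CTC against metastasis, derived against parental), became 175, 66, 27 and 671 with DESeq2. In the gene lists DESeq2 called 3, 3 and 10 of 122 genes for the first, second and last of these, and edgeR 0. Over all tested genes the DESeq2 shares there were 0.878%, 0.331% and 3.37%. A filter of CPM of at least 1 in at least 3 libraries gave 1 for metastasis against primary and 1 for derived against parental. With all entries the last count was 42. Metastasis against CTC fell to 0 with no filter, with all entries and with the replicate block, which leaves 1 residual degree of freedom. Without 1 derived line the 4 counts were 0 to 1 (1 without primary 5), 0, 0 to 1 (0 without each line other than CTC 3) and 4 to 6. The cause was not tested. Depth limits only the low lines: levels under 3 counts, 0.039 to 0.0465 CPM, could not be told from 0.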

Other observations

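Within 1 Mb on each side of Aqp1, a window chosen after the values were seen, 4 of the 10 genes considered had an r of at least 0.9 with it (40%, against 5.3% of all genes considered). Besides Mindy4 and Inmt these were Mturn and Nod1. Mturn, the maturin gene, had 0.779 CPM in the parental line, 15.3 to 39.3 in the 5 lines high in Aqp1 and 0.756 to 3.99 in the other derived lines (r 0.938). Nod1, a sensor of bacterial peptidoglycan, had 1.12 CPM in the parental line, 10.4 to 24.5 in the high lines and 1.24 to 5.51 in the others (r 0.939). Genes whose mean log2(CPM + 0.5) was under 1 were not considered, which left out Siglec15 beside Slc14a1 (r 0.961). The same window held 0 of 5 such genes around Slc14a1 and 1 of 22 around Galnt15, Hacl1 (r 0.909, up to 12.9 CPM), which overlaps Btd on the opposite strand. For Galnt15 the count was 2 by Spearman's rho and 0 over the 9 derived lines.

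Values of other genes with wide spans, again chosen after they were seen, are given here. Mgp, the matrix Gla protein gene, had 896 CPM in metastasis 5, 132 to 297 in the other 4 lines high in Aqp1 and 1.58 to 46.6 in the low ones, the same split as the 3 genes. Tcim had 0.0139 CPM in primary 5 and 29.7 to 219 in every other line. Col4a5, a basement membrane collagen gene, had 104 CPM in primary 5 and 292 in metastasis 5 but 0.403 to 6.38 in CTC 1, CTC 3 and metastasis 3. Gm26619 had 469 CPM in CTC 3 and no count elsewhere. Car6, a secreted carbonic anhydrase that spanned 7.24 log2 units, less than any of the 3 genes, had 109 to 152 CPM in primary 8, CTC 6 and metastasis 7 and 0.511 to 11.4 in the other 7 lines.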
